A study of Rattus norvegicus with 32 samples.

Results

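The genes for sodium, calcium and cation channels were described in CA3 pyramidal neurons of the rat hippocampus after fluid percussion traumatic brain injury (TBI). Members were the array probes whose gene symbol begins with Scn (sodium channel alpha and beta subunits), Cacna, Cacnb or Cacng (calcium channel subunits), Hcn, Asic, Trpc, Trpv or Trpm followed by a number, together with Nalcn. This rule found 82 of 33849 probes and 60 of 12573 named genes. Of these, 46 probes for 38 genes passed the filter on dim probes, which kept a probe if some group had all 4 of its arrays above background. The neurons were cut by laser capture from adult male Sprague-Dawley rats and were ones that Fluoro-Jade, a stain for degenerating neurons, had not labelled. There were 4 groups at 4 h and the same 4 groups at 24 h. SHAM rats had the surgery without the injury, with saline per the study's methods, while the 4 h sham arrays are labelled as untreated. TBI rats received saline and the injury, TBI+MT rats metyrapone (100 mg/kg), which inhibits glucocorticoid synthesis, and the injury, and TBI+CB rats carbenoxolone (30 mg/kg), which inhibits the enzymes that convert glucocorticoids between active and inactive forms, and the injury. The labels place saline or drug 90 min before the injury and count the 4 and 24 h from that treatment, whereas the study's methods give a shorter interval and count the hours from surgery. No group received a drug without the injury. Each group had 2 pooled RNA samples, of 3 to 6 rats each per the series' design text, each hybridized to duplicate CodeLink arrays, which gave 32 arrays from 16 pools. A level is the raw intensity of a probe over the median of its array, so that 1 is the median probe, and the duplicate arrays of a pool were averaged. All n are 2 pools a group, a pair of levels gives replicate 1 and then replicate 2, and levels of different probes are not set against each other. Differences between groups are on the log2 scale with their SE (±) from limma, and adjusted p-values are from its Benjamini-Hochberg adjustment over all probes tested.

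Voltage-gated sodium channels open on depolarization and carry the upstroke of the action potential, and calcium channels turn that depolarization into transmitter release, gene regulation and dendritic signals. Each pore-forming subunit travels with auxiliary subunits that set its trafficking and gating. HCN channels open on hyperpolarization and steady the membrane, NALCN carries a sodium leak that sets the resting potential, acid-sensing ASIC channels open as tissue pH drops, and TRP channels admit cations downstream of receptors, temperature or intracellular calcium. CA3 pyramidal cells are known for burst firing, in which sodium, calcium and HCN currents all take part.

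The arrays were not equally bright. The share of probes above background ran from 26.1 to 65.9%, with the lowest shares in TBI+MT 24 h replicate 1 and TBI+CB 24 h replicate 2 and the highest in TBI+MT 4 h replicate 2 and TBI 4 h replicate 1. The slide numbers in the file headers fall into 3 series: both SHAM 4 h pools and TBI 4 h replicate 1 in series 1, both drug groups at 24 h in series 3, and all other pools in series 2. Drug and slide series therefore cannot be told apart at 24 h, whereas SHAM and TBI at 24 h lie in the same series. The pyramidal markers Slc17a7, Camk2a, Grik4 and Grin1 were above background, and Neurod2 did not pass the filter. Their summed level was 484 and 581 in the SHAM pools at 24 h, 499 and 618 in TBI, 399.6 and 395 in TBI+MT and 496 and 231 in TBI+CB. All 6 microglial markers passed, and their sum at 24 h was 33.8 and 65.3 in SHAM against 144 and 126 in TBI, 165 and 109 in TBI+MT and 139 and 151 in TBI+CB. At 4 h it was 48.7 and 139.6 in SHAM and 36.2 and 50.4 in TBI. Over the 16 pools the summed level ran from 65.5 to 136 for 6 of 8 interneuron markers (Gad2 and Slc32a1 did not pass), from 96.9 to 505 for 6 of 7 astrocyte markers, from 44.6 to 209.6 for 4 of 6 oligodendrocyte markers (Mbp did not pass), from 25.8 to 136 for 6 of 7 endothelial and mural markers and from 5.51 to 40.9 for the granule cell marker Prox1. The part of other cells in the channel values was not tested, and in pooled tissue fewer cells and less RNA per cell cannot be told apart.

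The 38 genes left by the filter included members of every family but Trpv. They were 7 of 9 sodium channel alpha subunit genes, 2 of 3 beta subunit genes and Nalcn, 5 of 10 Cacna1 pore genes, 3 of 3 Cacna2d, 3 of 4 Cacnb and 4 of 6 Cacng genes. Among the other cation channels, 2 of 3 Hcn, 4 of 5 Asic, 4 of 6 Trpc, 3 of 6 Trpm and 0 of 4 Trpv genes passed. The 22 genes that did not pass were Scn7a, Scn9a, Scn2b, Cacna1a, Cacna1d, Cacna1e, Cacna1i, Cacna1s, Cacnb4, Cacng1, Cacng4, Hcn2, Asic5, Trpc5, Trpc7, Trpm1, Trpm3, Trpm6, Trpv1, Trpv2, Trpv5 and Trpv6. Among these, 5 (Asic5, Trpc7, Trpm1, Trpv1 and Trpv2) were above background on no array. Cacna1a, the pore of the P/Q-type channels of most central synapses, was above background on 1 array with one probe and on 0 with the other. Hcn2, a main HCN subunit of forebrain neurons, was above background on 1 array. Cacna1e, the R-type pore, was above background on 4 and 3 arrays with its probes and Trpc5, a TRPC subunit of hippocampal pyramidal cells, on 4. For Cacna1a, Hcn2, Cacna1e and Trpc5 no change could be looked for at this signal. Others of the 22 were above background on more arrays, such as Cacng1 on 14 and Cacnb4 on 13 and 8 with its probes. They lacked a group with all its arrays above background.

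Several of the members that gave a signal on nearly every array are best known from outside the brain. These are Scn4a of skeletal muscle, Scn10a and Scn11a of sensory ganglia, Cacna1f of the retina and Trpm8 of cold-sensing fibres, each above background on 31 or 32 of the 32 arrays. The probe used for Scn10a was at 28.98 to 187 with a median of 53.5, Cacna1f at 15.1 to 36.8 with a median of 23.4 and Scn4a at 10.1 to 29.6 with a median of 18.4. A further Scn11a probe was above background on only 4 arrays, and a further Scn4a probe lay at 0.363 to 2.95 with a median of 1.63. Scn8a, the sodium channel of the axon initial segment, showed the same split: a probe above background on 32 arrays and another on 0. Which of these probes reports its transcript in CA3 neurons was not tested.

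For a few probes the raw intensity varied less than the level. The Asic1 probe ranged from 1.14 to 7.46 as a level but only from 37.7 to 81.9 as raw intensity. The SD of its log2 values over the 16 pools was 0.71 for the level and 0.29 for the raw intensity. Scn10a, Hcn4 and Asic3 were likewise steadier as raw intensity, which made 4 of the 46 member probes (8.7%), beside 4.02% of all probes. Scn10a, for instance, had its highest level of 187 in the dim TBI+MT 24 h replicate 1 and stood at 39.3 in replicate 2.

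**Figure D1:**
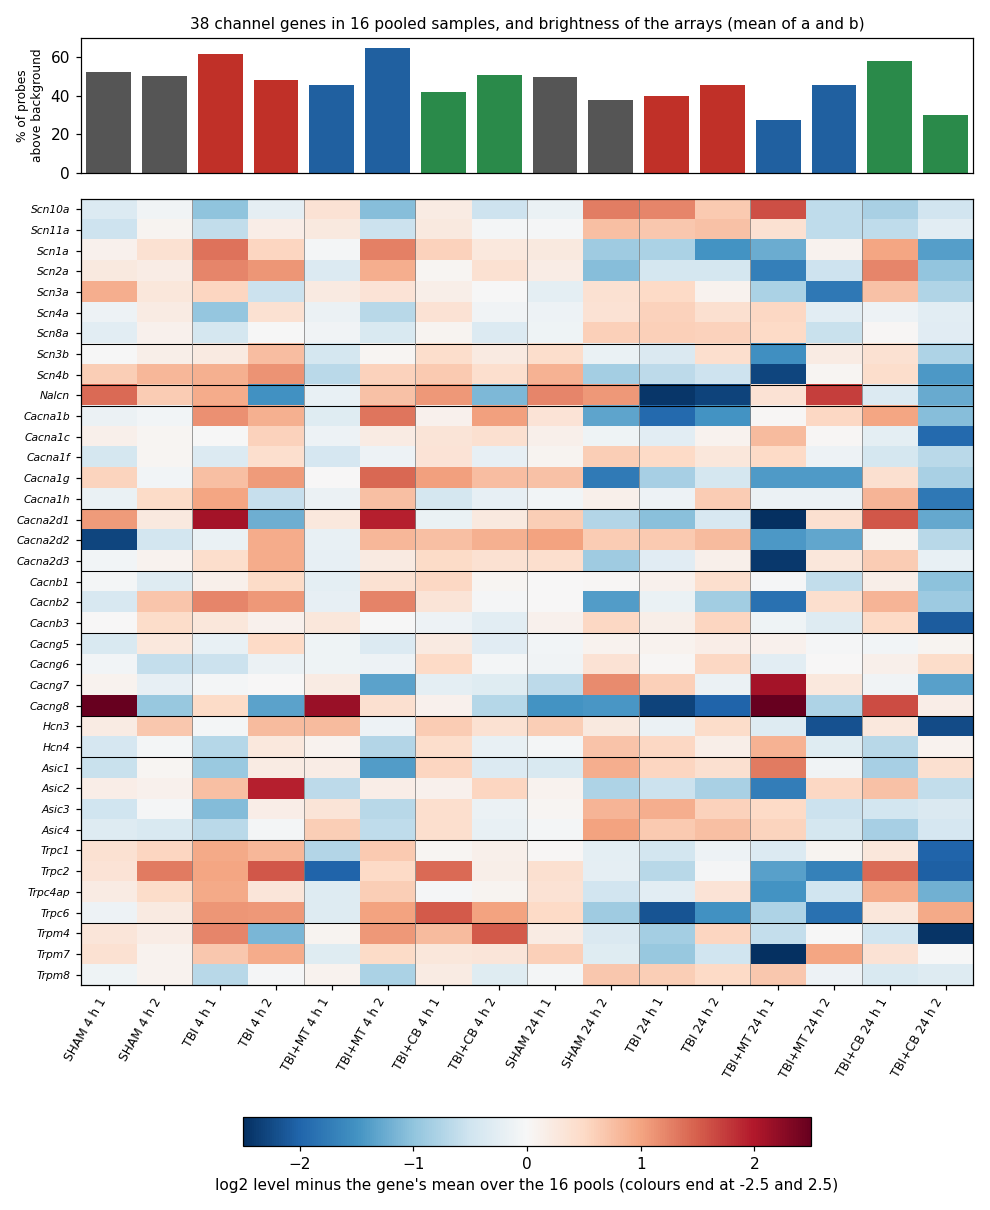
Channel genes by family (rows, with black lines between families) in each pooled sample (columns), with colours for the log2 level minus the mean of the gene over the 16 pools and bars for the percentage of probes above background (mean of the duplicate arrays). Of the 38 genes, the dim pool TBI+MT 24 h 1 holds the lowest level of 9 and the highest of 6. The dim pool TBI+CB 24 h 2 holds the lowest of 10 and the highest of 0.

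The pools of a group often lay apart. The median fold between the pools of a group over the 38 genes was 1.28 in SHAM 4 h, 1.57 in TBI 4 h, 1.90 in TBI+MT 4 h and 1.33 in TBI+CB 4 h. At 24 h SHAM stood at 1.69 and TBI at 1.31, while TBI+MT reached 2.03 and TBI+CB 2.34. More than 2-fold lay between the pools for 21 genes in TBI+MT and 22 genes in TBI+CB at 24 h, but for 1 gene in TBI at 24 h. TBI+CB 24 h replicate 2 held the lowest level of 10 genes and the highest of 0. TBI+MT 24 h replicate 1 was extreme on both sides, with the lowest level of 9 genes and the highest of 6.

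The early effect of the injury was addressed by TBI against SHAM at 4 h. The genes with the largest differences upward were Cacna2d2, Asic2, Cacna1b, Trpc6 and Cacnb2, and downward Nalcn, Cacng8 and Scn3a, none of them past the test. All 5 pore genes of the Cacna1 family and all 4 Trpc genes that passed the filter had a higher mean in TBI, with family medians of 0.24 and 0.44 on the log2 scale, while 3 of 7 sodium channel alpha genes did (median -0.14). The Trpc genes include Trpc4ap, whose product is not itself a channel. Of all probes tested, 12168 of 17613 had a higher mean in TBI. Over all 46 member probes the median log2 difference was 0.17, beside 0.33 over all probes. Of the 46, 0 passed the adjusted threshold of 0.05 (limma with Benjamini-Hochberg adjustment over all probes), as did 0% of the 17613 probes tested, and at an unadjusted p under 0.05 there were 2 (4.35%), beside 3.34% of all. Members more than 2-fold higher numbered 6 (13%) beside 15.9% of all probes, and members more than 2-fold lower 4 (8.7%) beside 7.35%. Both TBI pools were above both SHAM pools for 16 member probes (34.8%), beside 36.4% of all probes, and below both for 1 (2.17%), beside 7.58%. Both shares of higher probes are near those of the whole array.

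Metyrapone before the injury was compared with the injury alone at 4 h. All 4 Trpc genes, both beta subunit genes and all 3 Cacnb genes had a lower mean in TBI+MT than in TBI, with family medians of -0.83, -0.87 and -0.23. Of all probes tested, 12405 of 17619 had a lower mean in TBI+MT. Each gene is read here by its brightest probe, and another Scn3b probe lay on the higher side in TBI+MT, at 1.07 ± 0.72. Trpc2 and Asic2 were the farthest down and Cacng8 the farthest up, none past the test. The member median was -0.23, beside -0.40 over all probes. Of the 46 member probes 0 passed (0% of the 17619 tested), and 0 had an unadjusted p under 0.05, where 4.73% of all probes did. Members more than 2-fold higher numbered 2 (4.35%) beside 8.21% of all, and more than 2-fold lower 5 (10.9%) beside 25.1%. Both TBI+MT pools were below both TBI pools for 11 member probes (23.9%), beside 33.6%, and above both for 2 (4.35%), beside 8.14%. With the slide series as a block, which rests on TBI 4 h replicate 2 as the only TBI pool in the series of the drug pools, 230 probes of the array passed the adjusted test, of which 0 were members.

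Carbenoxolone at 4 h gave means below TBI for all 3 Cacnb genes and both beta subunit genes (medians -0.39 and -0.31) and above TBI for 3 of 4 Asic and 5 of 7 sodium channel alpha genes (medians 0.46 and 0.078). Of the 17619 probes tested, 11146 had means below TBI and 6473 above. The other Scn3b probes had means above TBI, at 0.62 ± 0.72 and 0.036 ± 0.58. Asic2, Cacnb2 and Scn2a were the farthest down and Trpm4 the farthest up, none past the test. The member median was 0.0047, beside -0.28 over all probes. Of the 46 member probes 0 passed (0% of the 17619 tested), and 0 had an unadjusted p under 0.05, beside 3.44% of all. More than 2-fold higher was 1 member probe (2.17%) beside 4.55% of all, and more than 2-fold lower were 4 (8.7%) beside 15.9%. For 13 member probes (28.3%) both TBI+CB pools were below both TBI pools, beside 34.6%, and above both for 2 (4.35%), beside 7.41%. With the slide series as a block 112 probes passed, of which 0 were members.

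At 24 h the injury alone left Nalcn, Trpc6 and Cacna1b with the lowest fitted values against SHAM, in each case with no TBI array above background, and none past the test. Of the sodium channel alpha genes 6 of 7 had a higher mean in TBI, with a median of 0.34, and all 3 Cacnb genes did, with a median of 0.18. Of all probes tested, 8984 of 17618 had a higher mean in TBI. The member median was 0.037, beside 0.012 over all probes. Of the 46 member probes 0 passed (0% of the 17618 tested), and 2 (4.35%), for Nalcn and Trpc6, had an unadjusted p under 0.05, beside 1.84% of all. Fitted values more than 2-fold higher numbered 3 (6.52%) beside 4.09%, and more than 2-fold lower 3 (6.52%), for Nalcn, Trpc6 and Cacna1b, beside 6.71%. The 3 higher ones were further probes of Asic1, Trpc1 and Cacnb1, the last with no SHAM array above background. The probes that stand for these genes gave 0.20, -0.19 and 0.25. Both TBI pools were below both SHAM pools for 6 member probes (13%), beside 11.4%, and above both for 3 (6.52%), beside 13.1%.

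TBI+MT at 24 h lay in another slide series than TBI, so drug and series cannot be told apart, and its replicate 1 was dim. Of the 38 genes 28 had a lower mean in TBI+MT than in TBI. This share is near that of the whole array, 13018 of the 17593 probes tested. Among the 28 genes were all 3 Cacna2d, all 3 Cacnb, all 3 Trpm and 6 of 7 sodium channel alpha genes (medians -0.98, -0.55, -0.29 and -0.61). The member median of -0.43 lay near that of all probes, -0.39. Cacng8, Nalcn and Cacna1b stood on the higher side and Cacna2d2 and Scn3a on the lower side, and these 5 genes had an unadjusted p under 0.05 but did not pass the adjusted test. Of the 46 member probes 0 passed (0% of the 17593 tested), and 7 (15.2%) had an unadjusted p under 0.05, beside 5.51% of all. Fitted values more than 2-fold higher numbered 3 (6.52%) beside 5.5%, and more than 2-fold lower 8 (17.4%) beside 13.8%. Both TBI+MT pools were below both TBI pools for 19 member probes (41.3%), beside 28.6%, and above both for 3 (6.52%), beside 5.69%.

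TBI+CB at 24 h, also in another slide series than TBI, had Scn10a, Asic4, Trpm4, Asic3 and Scn11a farthest below TBI. Farthest above it were Cacng8, Trpc6, Cacna1b and Nalcn, against TBI groups that were not above background. None of these genes passed the test. The probes of Scn10a and Asic3 were among those steadier as raw intensity than as level. The member median was -0.59, beside -0.038 over all probes. It rested on the pools: without the dim TBI+CB 24 h replicate 2 it was 0.26, beside 0.60 over all probes, and without replicate 1 -0.96, beside -0.56. Of the 46 member probes 0 passed (0% of the 17597 tested), and 3 (6.52%), Trpc6 and Cacng8 higher and Asic4 lower, had an unadjusted p under 0.05, beside 8.22% of all. Fitted values more than 2-fold higher numbered 4 (8.7%) beside 14.3%, and more than 2-fold lower 9 (19.6%) beside 15.2%. For 14 member probes (30.4%) both TBI+CB pools were below both TBI pools, beside 27.4%, and above both for 5 (10.9%), beside 15.9%.

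**Figure D2:**
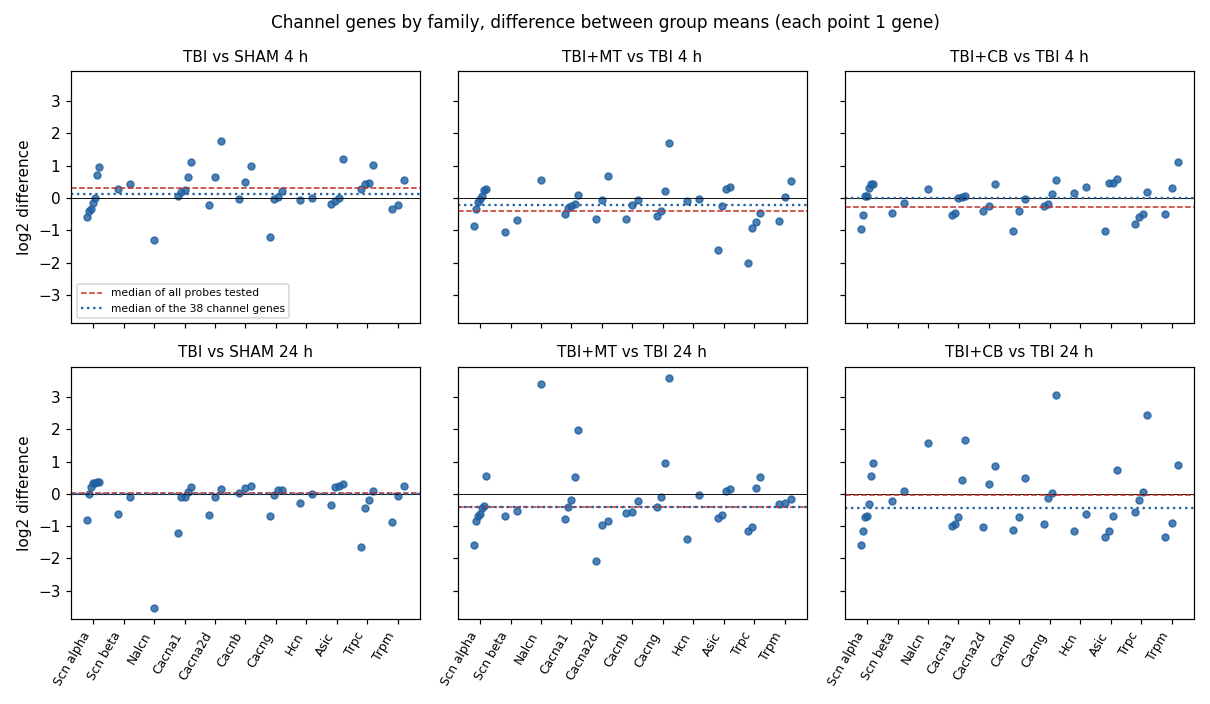
Log2 differences between group means for the 38 channel genes by family, 1 panel per comparison, with dashed lines at the median of all probes tested, dotted lines at that of the 38 genes, and fitted values, not bounds, where a group was not above background. The genes farthest from 0 are Nalcn, Cacng8, Trpc6 and Cacna2d2 at 24 h.

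Nalcn, the sodium leak channel, gave the widest gap of the members between TBI and SHAM at 24 h. Its levels at 4 h were 3.02 and 1.74 in SHAM, 2.14 and 0.398 in TBI, 0.997 and 1.88 in TBI+MT and 2.41 and 0.519 in TBI+CB. At 24 h Nalcn measured 2.64 and 2.402 in SHAM, 0.2096 and 0.226 in TBI, 1.45 and 3.73 in TBI+MT and 0.895 and 0.4699 in TBI+CB. The TBI pools at 24 h were the lowest of all 16, and no TBI array there was above background, against 3 of 4 SHAM arrays. Against the lowest level of any probe above background on the TBI arrays, Nalcn was at least 2.17-fold lower in TBI than in SHAM at 24 h (adjusted p = 1.00). Both groups were in the same slide series. Folds given below as "at least" rest on the same kind of limit, which is not that of the probe in question. Both TBI+MT pools lay above both TBI pools at 24 h (adjusted p = 0.681). Only 1 of the 4 TBI+MT arrays was above background, so no fold is given. Both TBI+CB pools also lay above both TBI pools, with no bound above 1 to give (adjusted p = 0.604). At 4 h the pools of each injured group were split, and TBI differed from SHAM by -1.32 ± 0.88 (SE, adjusted p = 0.936) on the log2 scale. Without TBI 4 h replicate 2, the low pool, that difference was -0.10.

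Among the sodium channel pore genes, Scn2a, the main subunit of excitatory axons and terminals, was above background on every array. Its levels at 4 h were 19.8 and 19.04 in SHAM, 38.9 and 36.1 in TBI, 13.2 and 31.6 in TBI+MT and 17.4 and 21.8 in TBI+CB. At 24 h Scn2a measured 18.9 and 8.02 in SHAM, 12.4 and 12.4 in TBI, 5.09 and 11.7 in TBI+MT and 39.3 and 8.402 in TBI+CB. At 4 h both TBI pools lay above every SHAM and drug pool, with a log2 difference of 0.95 ± 0.74 (SE, adjusted p = 0.936) from SHAM, -0.87 ± 0.74 (SE, adjusted p = 0.736) for TBI+MT against TBI and -0.95 ± 0.74 (SE, adjusted p = 0.957) for TBI+CB against TBI. At 24 h SHAM and TBI differed by 0.0064 ± 0.74, and the TBI+CB pools lay on either side of TBI.

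Scn1a, which in the hippocampus is known above all for driving interneuron firing, measured 1.79 and 2.17 in SHAM, 4.28 and 2.40 in TBI, 1.62 and 3.99 in TBI+MT and 2.48 and 2.01 in TBI+CB at 4 h. At 24 h Scn1a measured 1.98 and 0.894 in SHAM, 0.959 and 0.594 in TBI, 0.704 and 1.76 in TBI+MT and 3.28 and 0.643 in TBI+CB. The TBI pools at 24 h were not above background for Scn1a on any array. They overlapped with the SHAM pools (adjusted p = 1.00) and with the TBI+CB pools (adjusted p = 0.704), and no fold is given for either. Scn3a, a subunit most abundant before birth, measured 4.72 and 3.07 in SHAM, 3.65 and 1.75 in TBI, 2.93 and 3.19 in TBI+MT and 2.805 and 2.497 in TBI+CB at 4 h. At 24 h Scn3a measured 2.11 and 3.304 in SHAM, 3.56 and 2.66 in TBI, 1.46 and 0.731 in TBI+MT and 4.17 and 1.49 in TBI+CB. The TBI+MT pools at 24 h held the lowest Scn3a levels of the series and no array above background, which made the gene at least 2.34-fold lower than in TBI (adjusted p = 0.848). At 4 h its TBI pools were split and differed from SHAM by -0.59 ± 0.61 (SE, adjusted p = 0.936).

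Scn8a, Scn4a, Scn11a and Scn10a had overlapping TBI and SHAM pools at 4 h. The Scn8a probe measured 5.91 and 7.64 in SHAM, 5.26 and 7.08 in TBI, 6.65 and 5.47 in TBI+MT and 7.398 and 5.604 in TBI+CB at 4 h. At 24 h Scn8a measured 6.59 and 10.8 in SHAM, 10.8 and 10.5 in TBI, 10.1 and 4.83 in TBI+MT and 7.24 and 5.80 in TBI+CB. Both drug groups were below both TBI pools at 24 h, with log2 differences of -0.61 ± 0.50 (SE, adjusted p = 0.925) with metyrapone and -0.72 ± 0.50 (SE, adjusted p = 0.649) with carbenoxolone, while TBI and SHAM differed by 0.34 ± 0.50. Scn4a measured 18.2 and 22.7 in SHAM, 10.1 and 25.9 in TBI, 17.98 and 12.3 in TBI+MT and 25.4 and 18.7 in TBI+CB at 4 h. At 24 h Scn4a measured 18.02 and 25.3 in SHAM, 29.6 and 25.99 in TBI, 28.2 and 16.4 in TBI+MT and 18.2 and 16.5 in TBI+CB. Its TBI pools at 24 h were both above the SHAM pools, the difference being 0.38 ± 0.54 (SE, adjusted p = 1.00), and both TBI+CB pools were below both TBI pools, at -0.68 ± 0.54 (SE, adjusted p = 0.687). TBI+CB differed from TBI at 4 h by 0.43 ± 0.54. The dimmer Scn4a probe measured 1.69 and 2.95 in SHAM, 2.45 and 2.47 in TBI, 0.363 and 0.659 in TBI+MT and 1.22 and 1.14 in TBI+CB at 24 h. No TBI+MT array was above background for it, and it was at least 1.74-fold lower in TBI+MT than in TBI (adjusted p = 0.578), where the brighter probe differed by -0.37 ± 0.54 with overlapping pools.

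Scn11a measured 3.31 and 4.97 in SHAM, 3.098 and 5.34 in TBI, 5.58 and 3.24 in TBI+MT and 5.63 and 4.58 in TBI+CB at 4 h. At 24 h Scn11a measured 4.62 and 8.02 in SHAM, 7.596 and 7.83 in TBI, 6.16 and 3.05 in TBI+MT and 3.06 and 3.94 in TBI+CB. Both drug groups were below both TBI pools at 24 h, with a log2 difference of -0.83 ± 0.54 (SE, adjusted p = 0.916) with metyrapone and -1.15 ± 0.54 (SE, adjusted p = 0.592) with carbenoxolone, and TBI differed from SHAM by 0.34 ± 0.54. Scn10a measured 48.2 and 56.97 in SHAM, 30.3 and 52.4 in TBI, 77.7 and 28.98 in TBI+MT and 69.7 and 42.4 in TBI+CB at 4 h. At 24 h Scn10a measured 54.5 and 148 in SHAM, 141 and 95.6 in TBI, 187 and 39.3 in TBI+MT and 34.8 and 43.5 in TBI+CB. TBI+CB was below TBI in both pools, with a log2 difference of -1.58 ± 0.78 (SE, adjusted p = 0.592), whereas the TBI+MT pools lay on either side of TBI. The raw intensity of Scn10a varied less than its level. At 24 h it was 2025 and 1748 in TBI and 1468 and 415 in TBI+CB.

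The beta subunits, which anchor sodium channels and set their gating, included Scn3b, with 3 probes above background on all arrays. The probe that stands for the gene ranged from 137 to 675 with a median of 449.8. At 4 h it measured 395 and 439 in SHAM, 463 and 675 in TBI, 295 and 411 in TBI+MT and 537 and 462 in TBI+CB, and TBI differed from SHAM by 0.43 ± 0.63 (SE, adjusted p = 0.936). A further probe measured 779 and 299.6 in SHAM, 335 and 104 in TBI, 552 and 277 in TBI+MT and 285 and 291 in TBI+CB at 4 h, with a difference of -1.37 ± 0.72 (SE, adjusted p = 0.936), so that these probes took opposite signs. The third probe differed by 0.16 ± 0.58. Direction for Scn3b at 4 h therefore depends on the probe.

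Scn4b, known for its part in resurgent sodium current, measured 103 and 119.8 in SHAM, 125 and 147 in TBI, 42.3 and 101 in TBI+MT and 107 and 90.9 in TBI+CB at 4 h. At 24 h Scn4b measured 124 and 37.8 in SHAM, 42.8 and 47.1 in TBI, 13.9 and 70.4 in TBI+MT and 91.9 and 24.96 in TBI+CB. The TBI+MT pools at 4 h were both below both TBI pools, with a log2 difference of -1.05 ± 0.85 (SE, adjusted p = 0.736). At 24 h the TBI pools lay close together and between the SHAM pools, with a difference of -0.61 ± 0.85. Its other probe differed by -1.03 ± 1.27 between TBI+MT and TBI at 4 h.

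**Figure D3:**
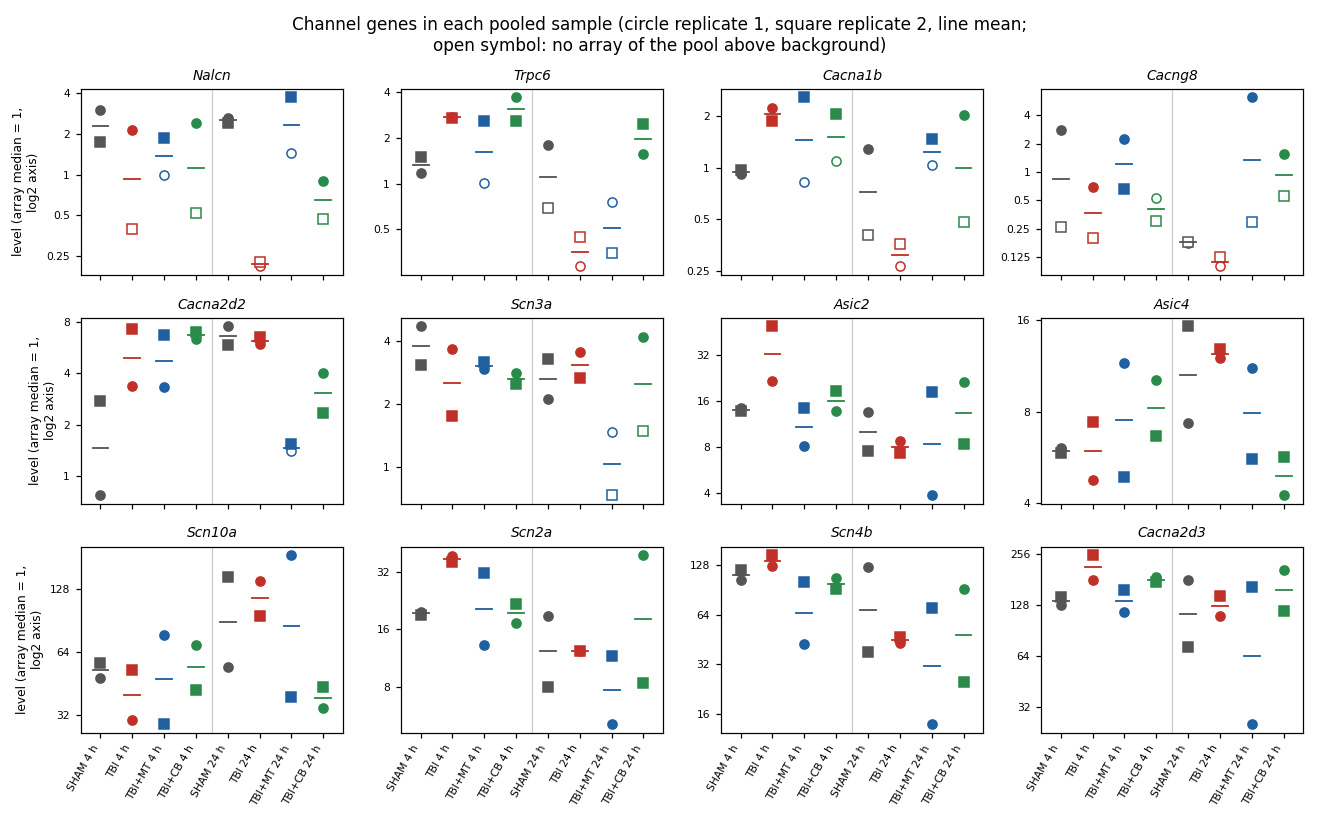
Level of 12 channel genes in each pool (array median = 1, log2 axis), with circles for replicate 1, squares for replicate 2, lines at the mean of the log2 values and open symbols for pools in which no array was above background. Nalcn, Trpc6 and Cacna1b have their lowest TBI levels at 24 h, all with open symbols, and the drug groups at 24 h are widely split for Cacng8, Scn2a, Scn4b and Cacna2d3.

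Among the calcium channel pore genes, Cacna1b, the N-type pore of presynaptic terminals, measured 0.912 and 0.963 in SHAM, 2.23 and 1.88 in TBI, 0.822 and 2.57 in TBI+MT and 1.09 and 2.06 in TBI+CB at 4 h. At 24 h Cacna1b measured 1.29 and 0.406 in SHAM, 0.266 and 0.361 in TBI, 1.03 and 1.46 in TBI+MT and 2.02 and 0.484 in TBI+CB. Both TBI pools were above both SHAM pools at 4 h, with a log2 difference of 1.13 ± 0.78 (SE, adjusted p = 0.936), and below them at 24 h, when no TBI array was above background and no fold can be given (adjusted p = 1.00). Both drug groups stood above both TBI pools at 24 h, without a bound above 1 for TBI+CB (adjusted p = 0.592). No fold is given for TBI+MT (adjusted p = 0.848). Of the TBI+MT pools, replicate 2 alone was above background, on 1 array.

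Cacna1f measured 17.7 and 24.9 in SHAM, 19.04 and 32.1 in TBI, 17.99 and 21.8 in TBI+MT and 30.4 and 20.7 in TBI+CB at 4 h. At 24 h Cacna1f measured 25.1 and 36.8 in SHAM, 33.9 and 29.1 in TBI, 33.8 and 21.998 in TBI+MT and 17.8 and 15.1 in TBI+CB. Both TBI+CB pools were below both TBI pools at 24 h, with a log2 difference of -0.94 ± 0.48 (SE, adjusted p = 0.593), and the SHAM and TBI pools overlapped at both times. The L-type pore Cacna1c, above background on 16 arrays, ranged from 0.2302 to 1.53 with a median of 0.925. The T-type pores Cacna1g and Cacna1h, which open near the resting potential and feed burst firing, ranged from 0.6395 to 5.95 with a median of 2.54 and from 1.19 to 8.14 with a median of 3.77. For Cacna1g both TBI pools exceeded both SHAM pools at 4 h, with a log2 difference of 0.67 ± 0.77 (SE, adjusted p = 0.936). In TBI+MT at 24 h no Cacna1g array was above background, which made it at least 1.07-fold lower than in TBI (adjusted p = 0.932). Cacna1h differed by 0.049 ± 0.79 between TBI and SHAM at 4 h and by 0.22 ± 0.79 at 24 h.

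The Cacna2d genes encode extracellular subunits that bring calcium channels to the membrane and include the targets of gabapentin. Cacna2d2 measured 0.768 and 2.75 in SHAM, 3.39 and 7.24 in TBI, 3.33 and 6.68 in TBI+MT and 6.38 and 7.02 in TBI+CB at 4 h. At 24 h Cacna2d2 measured 7.56 and 5.84 in SHAM, 5.92 and 6.51 in TBI, 1.41 and 1.53 in TBI+MT and 3.99 and 2.33 in TBI+CB. Every injured pool at 4 h was above both SHAM pools, and TBI differed from SHAM by 1.77 ± 0.65 (SE, adjusted p = 0.936). The lower SHAM pool weighed on this value: without SHAM 4 h replicate 1 it was 0.85, and with the slide series as a block 1.22. At 24 h SHAM and TBI overlapped (-0.099 ± 0.65), both TBI+MT pools were below both TBI pools with a log2 difference of -2.08 ± 0.65 (SE, adjusted p = 0.746), and both TBI+CB pools with -1.03 ± 0.65 (SE, adjusted p = 0.621). Only 1 of the 4 TBI+MT arrays was above background.

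Cacna2d3 ranged from 25.4 to 254 with a median of 152, with the lowest value in the dim TBI+MT 24 h replicate 1. Both TBI pools at 4 h, 181 and 254, exceeded the SHAM pools, 129 and 143, with a log2 difference of 0.66 ± 0.76 (SE, adjusted p = 0.936). Its other probe gave 0.85 ± 0.96 in that comparison. Cacna2d1 ranged from 0.629 to 30.1 with a median of 8.45 and was split within groups. Its TBI pools at 4 h were at 30.1 and 3.07 and its TBI+MT pools at 24 h at 0.629 and 9.39, with an SE of 1.35 on the log2 scale for the comparison of TBI with SHAM at 4 h.

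The cytoplasmic Cacnb subunits release calcium channels from the endoplasmic reticulum. Cacnb2 measured 1.496 and 3.21 in SHAM, 4.59 and 4.22 in TBI, 1.71 and 4.67 in TBI+MT and 2.47 and 1.94 in TBI+CB at 4 h. At 24 h Cacnb2 measured 1.995 and 0.752 in SHAM, 1.78 and 1.09 in TBI, 0.5399 and 2.65 in TBI+MT and 3.56 and 1.05 in TBI+CB. Both TBI pools at 4 h exceeded both SHAM pools, with a log2 difference of 1.01 ± 0.87 (SE, adjusted p = 0.936), and both TBI+CB pools were below them, with a log2 difference of -1.01 ± 0.87 (SE, adjusted p = 0.957). Cacnb1 ranged from 29.4 to 85.6 with a median of 61.3, and both TBI pools were above both SHAM pools at 4 h (0.48 ± 0.51) and at 24 h (0.25 ± 0.51). Its other probe was above background on 14 arrays. Cacnb3, abundant in brain, ranged from 2.91 to 17.9 with a median of 13.3, and its TBI and SHAM groups differed by -0.044 ± 0.68 at 4 h and 0.025 ± 0.68 at 24 h. Its lowest level, in TBI+CB 24 h replicate 2, stood against 17.5 in the other pool of that group.

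Of the Cacng genes, Cacng5, Cacng7 and Cacng8 encode proteins that accompany AMPA receptors, and Cacng8 is the form enriched in hippocampus. Cacng8 measured 2.796 and 0.259 in SHAM, 0.694 and 0.198 in TBI, 2.21 and 0.659 in TBI+MT and 0.535 and 0.305 in TBI+CB at 4 h. At 24 h Cacng8 measured 0.177 and 0.181 in SHAM, 0.1 and 0.125 in TBI, 6.18 and 0.293 in TBI+MT and 1.54 and 0.557 in TBI+CB. The level of 0.1 is the floor. Cacng8 had the widest range of the 46 member probes, and no array of SHAM or TBI at 24 h and none of TBI+CB at 4 h was above background. Both pools of TBI+MT (adjusted p = 0.848) and of TBI+CB (adjusted p = 0.592) lay above both TBI pools at 24 h, but no fold is given. In both drug groups only replicate 1 was above background. TBI+MT differed from TBI at 4 h by 1.70 ± 1.36 (SE, adjusted p = 0.736) and TBI from SHAM by -1.20 ± 1.36 (SE, adjusted p = 0.936), and the latter changed sign to 0.52 without SHAM 4 h replicate 1.

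Cacng7 measured 3.06 and 2.496 in SHAM, 2.75 and 2.87 in TBI, 3.29 and 1.13 in TBI+MT and 2.42 and 2.31 in TBI+CB at 4 h. At 24 h Cacng7 measured 1.81 and 6.45 in SHAM, 4.297 and 2.57 in TBI, 12.02 and 3.43 in TBI+MT and 2.68 and 1.12 in TBI+CB. The high TBI+MT pool is the dim replicate 1, and the group difference from TBI was 0.95 ± 0.79 (SE, adjusted p = 0.925). Without that pool the difference was 0.044. Cacng6, a gamma subunit known from muscle and other tissues, measured 2.17 and 1.502 in SHAM, 1.56 and 2.04 in TBI, 2.09 and 2.07 in TBI+MT and 3.17 and 2.17 in TBI+CB at 4 h. At 24 h Cacng6 measured 2.13 and 2.91 in SHAM, 2.299 and 3.24 in TBI, 1.87 and 2.26 in TBI+MT and 2.48 and 3.11 in TBI+CB. Both TBI+CB pools at 4 h were above both TBI pools, with a log2 difference of 0.56 ± 0.46 (SE, adjusted p = 0.957). Cacng5 had the smallest spread of the 46 member probes, from 2.66 to 4.86 with a median of 3.48, and its 6 group differences lay between -0.39 ± 0.45 and 0.21 ± 0.45.

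Of the pacemaker channels, Hcn3 and Hcn4 passed the filter. Hcn3 measured 1.07 and 1.46 in SHAM, 0.887 and 1.601 in TBI, 1.596 and 0.845 in TBI+MT and 1.43 and 1.204 in TBI+CB at 4 h. At 24 h Hcn3 measured 1.405 and 1.0996 in SHAM, 0.837 and 1.27 in TBI, 0.743 and 0.203 in TBI+MT and 1.103 and 0.196 in TBI+CB. No TBI+MT array at 24 h was above background, both pools were below both TBI pools, and no bound above 1 could be given (adjusted p = 0.916). Replicate 2 of TBI+CB was as low (-1.15 ± 0.81 for the group). Hcn4, the main subunit of the cardiac pacemaker, ranged from 2.31 to 7.04 with a median of 3.88 and was above background on all 32 arrays. Its TBI and SHAM groups differed by 0.0090 ± 0.60 at 4 h and 0.0014 ± 0.60 at 24 h, and both TBI+CB pools were below both TBI pools at 24 h, with a log2 difference of -0.64 ± 0.60 (SE, adjusted p = 0.726). As raw intensity, which was steadier for Hcn4, the TBI+CB pools at 24 h lay on either side of TBI, at 101 and 38.6 against 79.3 and 77.4.

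Of the acid-sensing channels, Asic2, which in brain joins with ASIC1 subunits, measured 14.3 and 13.8 in SHAM, 21.6 and 49.2 in TBI, 8.09 and 14.4 in TBI+MT and 13.7 and 18.7 in TBI+CB at 4 h. At 24 h Asic2 measured 13.6 and 7.505 in SHAM, 8.797 and 7.29 in TBI, 3.88 and 18.3 in TBI+MT and 21.4 and 8.41 in TBI+CB. At 4 h both TBI pools were above every other pool of that time, with a log2 difference of 1.22 ± 0.75 (SE, adjusted p = 0.936) over SHAM, and against TBI the difference was -1.60 ± 0.75 (SE, adjusted p = 0.736) for TBI+MT and -1.03 ± 0.75 (SE, adjusted p = 0.957) for TBI+CB. The level of 49.2 in TBI 4 h replicate 2 was the highest of the series. Without that pool the differences were 0.62 against SHAM, -1.001 for TBI+MT and -0.43 for TBI+CB. A further Asic2 probe was above background on 3 arrays.

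Asic4, an ASIC form not known to conduct by itself, measured 6.06 and 5.84 in SHAM, 4.78 and 7.39 in TBI, 11.6 and 4.86 in TBI+MT and 10.2 and 6.64 in TBI+CB at 4 h. At 24 h Asic4 measured 7.34 and 15.3 in SHAM, 11.99 and 12.8 in TBI, 11.2 and 5.58 in TBI+MT and 4.25 and 5.697 in TBI+CB. Both TBI pools at 24 h were above all 4 drug pools, with differences of -0.65 ± 0.59 (SE, adjusted p = 0.925) for TBI+MT and -1.33 ± 0.59 (SE, adjusted p = 0.592) for TBI+CB. TBI+MT differed from TBI at 4 h by 0.34 ± 0.59, which became -0.29 without TBI+MT 4 h replicate 1. Asic3, best known from sensory neurons, measured 6.37 and 8.82 in SHAM, 4.22 and 10.1 in TBI, 11.2 and 5.55 in TBI+MT and 12.04 and 8.14 in TBI+CB at 4 h. At 24 h Asic3 measured 9.25 and 16.2 in SHAM, 16.8 and 13.4 in TBI, 12.7 and 6.21 in TBI+MT and 6.498 and 7.0 in TBI+CB. It too was lower in both drug groups than in both TBI pools at 24 h, with a log2 difference of -0.76 ± 0.60 (SE, adjusted p = 0.925) and -1.15 ± 0.60 (SE, adjusted p = 0.594), and TBI+CB differed from TBI at 4 h by 0.60 ± 0.60. The SD of the log2 values of Asic3 over the pools was 0.58 for the level and 0.56 for the raw intensity.

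Asic1, the acid sensor of hippocampal neurons, has probes that disagree. The one that stands for the gene differed by -0.10 ± 0.76 between TBI and SHAM at 4 h and 0.20 ± 0.76 at 24 h. The other measured 3.21 and 8.904 in SHAM, 2.48 and 1.13 in TBI, 3.29 and 2.87 in TBI+MT and 3.28 and 2.72 in TBI+CB at 4 h. At 24 h this other Asic1 probe measured 0.829 and 2.34 in SHAM, 4.13 and 3.08 in TBI, 1.15 and 0.407 in TBI+MT and 3.22 and 1.67 in TBI+CB. Both its TBI pools were below both SHAM pools at 4 h, at -1.68 ± 0.73 (SE, adjusted p = 0.936), and above them at 24 h, at 1.35 ± 0.73 (SE, adjusted p = 1.00). TBI+MT was below TBI in both pools of this other probe at 24 h, at -2.38 ± 0.73 (SE, adjusted p = 0.746). The probe that stands for the gene differed there by 0.14 ± 0.76, with overlapping pools.

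**Figure D4:**
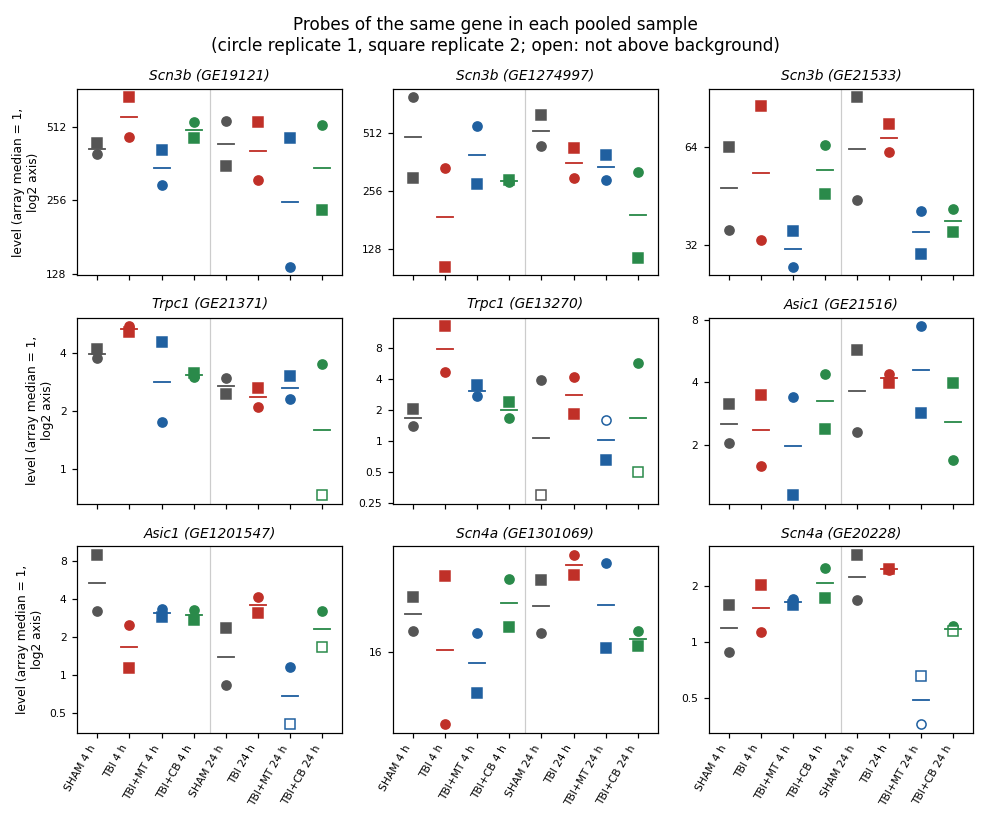
Level in each pool (array median = 1, log2 axis) for the probes of Scn3b, Trpc1, Asic1 and Scn4a that passed the filter, with circles for replicate 1, squares for replicate 2, lines at the mean of the log2 values and open symbols for pools not above background. At 4 h the probe that stands for Scn3b has both TBI pools above both SHAM pools, while another Scn3b probe has the lower mean in TBI.

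Trpc6, a receptor-operated channel opened by diacylglycerol, had levels that crossed those of SHAM between the times. Its levels at 4 h were 1.17 and 1.49 in SHAM, 2.74 and 2.696 in TBI, 1.02 and 2.58 in TBI+MT and 3.69 and 2.57 in TBI+CB. At 24 h Trpc6 measured 1.805 and 0.686 in SHAM, 0.286 and 0.445 in TBI, 0.751 and 0.3501 in TBI+MT and 1.55 and 2.45 in TBI+CB. Both TBI pools exceeded both SHAM pools at 4 h, with a log2 difference of 1.04 ± 0.64 (SE, adjusted p = 0.936). At 24 h both TBI pools were below both SHAM pools and no array of TBI or TBI+MT was above background, so no fold is given against SHAM (adjusted p = 1.00). Trpc6 was at least 1.69-fold higher in TBI+CB than in TBI at 24 h (adjusted p = 0.592), with all 4 TBI+CB arrays above background. That includes the dim replicate 2, which held the higher level.

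Trpc1, a subunit that joins other TRPC channels, measured 3.78 and 4.202 in SHAM, 5.57 and 5.16 in TBI, 1.75 and 4.58 in TBI+MT and 3.02 and 3.18 in TBI+CB at 4 h. At 24 h Trpc1 measured 2.97 and 2.45 in SHAM, 2.101 and 2.65 in TBI, 2.304 and 3.04 in TBI+MT and 3.53 and 0.725 in TBI+CB. Both TBI pools at 4 h were above every other pool of that time, with differences of 0.43 ± 0.68 (SE, adjusted p = 0.936) from SHAM, -0.92 ± 0.68 (SE, adjusted p = 0.736) for TBI+MT and -0.79 ± 0.68 (SE, adjusted p = 0.957) for TBI+CB. A further Trpc1 probe also had both TBI pools above both SHAM pools at 4 h, at 1.395 and 2.05 in SHAM and 4.68 and 13.2 in TBI, a difference of 2.22 ± 1.23 (SE, adjusted p = 0.936). Trpc2, known from pheromone-sensing neurons, measured 1.74 and 3.398 in SHAM, 2.72 and 4.06 in TBI, 0.344 and 1.94 in TBI+MT and 3.68 and 1.54 in TBI+CB at 4 h. At 24 h Trpc2 measured 1.82 and 1.19 in SHAM, 0.856 and 1.35 in TBI, 0.539 and 0.431 in TBI+MT and 3.66 and 0.338 in TBI+CB. Both TBI+MT pools were below both TBI pools at 4 h, with a log2 difference of -2.02 ± 1.03 (SE, adjusted p = 0.736), and without TBI+MT 4 h replicate 1 the difference was -0.77. At 24 h no TBI+MT array was above background.

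Trpc4ap, whose product binds TRPC channels and is not itself a channel, matched the rule and ranged from 9.15 to 49.3 with a median of 28.3. It differed by 0.28 ± 0.70 between TBI and SHAM at 4 h. Trpc4 itself has a probe named only in the scanner files, so it is no member, and gave 76.4 and 68.4 in SHAM and 79.6 and 94.9 in TBI at 4 h, a difference of 0.27 ± 0.50.

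Trpm7, a magnesium and zinc channel joined to a kinase, ranged from 1.17 to 19.1 with a median of 11.8. At 24 h both its TBI pools, 4.98 and 6.78, were below both SHAM pools, 14.6 and 7.77, with a log2 difference of -0.87 ± 0.96 (SE, adjusted p = 1.00). Both TBI+CB pools, 12.2 and 9.52, were above both TBI pools, at 0.89 ± 0.96 (SE, adjusted p = 0.753), and the TBI+MT pools were split at 1.17 and 19.1. Trpm4, a calcium-activated channel that passes monovalent cations, measured 1.34 and 1.24 in SHAM, 2.53 and 0.494 in TBI, 1.14 and 2.31 in TBI+MT and 1.88 and 3.15 in TBI+CB at 4 h. At 24 h Trpm4 measured 1.25 and 0.847 in SHAM, 0.606 and 1.59 in TBI, 0.717 and 1.08 in TBI+MT and 0.768 and 0.2001 in TBI+CB. Its TBI+CB group at 4 h differed from TBI by 1.12 ± 0.85 (SE, adjusted p = 0.957), and the value turned to -0.057 without TBI 4 h replicate 2. Trpm8 measured 2.94 and 3.38 in SHAM, 1.96 and 3.11 in TBI, 3.38 and 1.84 in TBI+MT and 3.65 and 2.56 in TBI+CB at 4 h. At 24 h Trpm8 measured 3.07 and 5.09 in SHAM, 4.87 and 4.47 in TBI, 5.04 and 2.89 in TBI+MT and 2.43 and 2.54 in TBI+CB. Both TBI+CB pools were below both TBI pools at 24 h, with a log2 difference of -0.91 ± 0.51 (SE, adjusted p = 0.604), and TBI differed from SHAM by -0.35 ± 0.51 at 4 h.

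Whether an effect differed between the times was tested as the difference of log2 differences, 24 h minus 4 h. For TBI against SHAM 0 of 46 member probes passed, as did 0% of all probes, and 2 (4.35%) had an unadjusted p under 0.05 against 2.35% of all. For TBI+MT against TBI 0 passed (0% of all) and 5 (10.9%) had an unadjusted p under 0.05, against 4.67%. For TBI+CB against TBI 0 passed (0% of all) and 1 (2.17%) did, against 7.75%. Trpc6 went from above SHAM at 4 h to below it at 24 h, where no TBI array was above background, so the size of the difference between the times is not given. For Cacna2d2 the metyrapone comparison differed between the times by -2.01 ± 0.92 (SE, adjusted p = 0.980). TBI pools enter both the injury and the drug comparisons of a time, so these values are not independent of each other.

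Partners of the channels and other genes of sodium and calcium handling were read from a list of 56 genes, of which 42 had a probe and 30 passed the filter. None of the 30 passed the adjusted test in any of the 6 comparisons. At 4 h their median log2 difference was 0.45 between TBI and SHAM, and against TBI it was -0.56 with metyrapone and -0.25 with carbenoxolone, beside 0.33, -0.40 and -0.28 over all probes. At 24 h these medians were 0.074, -0.50 and -0.22, beside 0.012, -0.39 and -0.038 over all probes. At an unadjusted p under 0.05 there were 1, 2 and 0 of the 30 at 4 h, beside 3.34, 4.73 and 3.44% of all probes, and 0, 3 and 2 at 24 h, beside 1.84, 5.51 and 8.22%.

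Gem, a small GTPase that inhibits calcium channels through their beta subunits, was among those with an unadjusted p under 0.05. Its levels at 4 h were 0.864 and 0.453 in SHAM, 2.296 and 4.23 in TBI, 0.308 and 0.764 in TBI+MT and 2.55 and 2.93 in TBI+CB. At 24 h Gem measured 0.517 and 0.533 in SHAM, 1.68 and 2.69 in TBI, 0.114 and 2.04 in TBI+MT and 1.999 and 2.26 in TBI+CB. At both times the TBI and TBI+CB pools were all above the SHAM pools. The log2 difference at 4 h was 2.32 ± 1.02 (SE, adjusted p = 0.936) for TBI against SHAM, -2.68 ± 1.02 (SE, adjusted p = 0.736) for TBI+MT against TBI and -0.19 ± 1.02 (SE, adjusted p = 0.977) for TBI+CB against TBI. At 24 h no SHAM array was above background and Gem was at least 1.91-fold higher in TBI (adjusted p = 1.00). Rrad, a GTPase of the same family, measured 1.79 and 3.95 in TBI and 0.549 and 1.06 in TBI+MT at 4 h, a difference of -1.80 ± 0.69 (SE, adjusted p = 0.736). At 24 h Rrad differed by -1.54 ± 0.69 (SE, adjusted p = 0.899) between these groups. Sptbn4, the spectrin that holds sodium channels at the axon initial segment, measured 100.2 and 96.4 in TBI and 50.8 and 33.2 in TBI+CB at 24 h, a difference of -1.26 ± 0.53 (SE, adjusted p = 0.592).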

How the data were processed

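RNA from laser-captured CA3 neurons went through 2 rounds of linear amplification before hybridization to CodeLink rat whole genome arrays, per the labels. The deposited scanner files hold 1 raw intensity per spot, made by the authors with CodeLink Expression Analysis 4.1.0.29054 per the file headers; values below 0 occur, and whether a local background had been subtracted is not given in the sources used here. The authors' processed values in the deposited series matrix are a signal equal to that intensity over the array median, to within a factor of about 1.01, with a lowest value of 0.01, and served as an alternative. No genome build enters, and 0 per-sample columns were left unused.

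Here each intensity was divided by its array's median, set to at least 0.1 and taken to log2. Spots with an irregular or masked flag were left out, and duplicate arrays were averaged. Probes above background on all 4 arrays of a group were kept, 17635 of 33849. Of all probes 16878 carried 1 gene symbol, 182 several and 16789 none. Where a gene had several probes, the one with the highest mean stood for it. limma 3.58.1 in R 4.3.3 took all 8 groups in a single fit (residual degrees of freedom 8, prior 3.88), with Benjamini-Hochberg adjustment within each comparison at 0.05. The number of pools limits the precision, and p-values rest on the spread between pools, not between single rats. Replicates of a group correlated with a median r of 0.873 and duplicate arrays with 0.975. Where no array of a group was above background, the fold is a lower bound against the detection limit ("at least") or is not given. That limit is the lowest level of any probe above background on the array, not the limit of the probe in question. The folds given as "at least" hold against that limit only, and may be smaller where the limit of the probe is higher.

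Values over all groups were given for the 4 genes on each side with the smallest p in each of the 6 comparisons, and ranges for a further list of neuronal channel genes. The members, the marker lists and the list of 56 partner genes were chosen with earlier results of these data known. Simulated pools with independent normal spread for each probe were also fitted. They held no slide series or differences in brightness, so they do not bear on those. Alternatives were quantile normalization, the authors' values, other floors and filters, each duplicate array alone, groups of 1 time only, a variance trend, blocks for slide series and replicate number, and each pool left out in turn.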

Additional observations from a re-analysis of the deposited data

How the results depend on the processing

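In all 9 comparisons 0 member probes passed the adjusted test under every alternative that could be fitted. The slide series could not be fitted as a block for the drug groups at 24 h. With the replicate number as a block the count was 0 in each, and the numbers did not pair the pools, since their deviations correlated between -0.13 and 0.29 over the 6 comparisons. With the numbers of SHAM 24 h and TBI+CB 24 h crossed, an alternative chosen after seeing the data, the count was again 0 of 46 members, and 2 of all probes for TBI+CB. Without TBI 4 h replicate 1, 47 probes of the array passed for TBI against SHAM and 49 for TBI+MT against TBI at 4 h, of which 0 were members.

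Of the median differences under alternatives, 103 stayed within 0.32, the SD between pools, of the value given and 7 moved further. Leaving out 1 pool moved the member median between 0.081 and 0.40 for TBI against SHAM, -0.43 and -0.19 for TBI+MT and -0.24 and 0.15 for TBI+CB at 4 h. At 24 h the ranges were -0.29 to 0.090, -0.67 to -0.34 and -0.96 to 0.26. Without SHAM 24 h replicate 2 the TBI median at 24 h was -0.29, beside -0.22 over all probes. With both dim 24 h pools left out the TBI+CB median was 0.26. Quantile normalization turned the TBI+MT median at 4 h from -0.23 to 0.14, while the median of all probes went from -0.40 to -0.0077. Without division by the array median, also chosen after seeing the data, the median was 0.52 for TBI against SHAM and -0.95 for TBI+CB against TBI at 4 h, beside 0.67 and -1.23 over all probes. The cause was not tested.

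Of 48 gene values, 11 changed sign under at least 1 alternative. Trpm4 in TBI+CB at 4 h ranged from -0.057 to 2.30 as 1 pool was left out, with the negative value without TBI 4 h replicate 2, which also turned Trpm4 and Nalcn in TBI+MT. Asic4 in TBI+MT at 4 h turned without TBI+MT 4 h replicate 1, and Cacng8 in TBI at 4 h without SHAM 4 h replicate 1. Scn4a and Asic3 in TBI+CB at 4 h turned with the slide series as a block, without TBI 4 h replicate 1 and without division by the median, and the last also turned Cacng6. Scn8a, Scn11a and Asic3 at 24 h turned without SHAM 24 h replicate 1. Signal over background limits Nalcn and Trpc6 to bounds at 24 h, and no fold is given for Cacna1b and Cacng8.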

Other observations

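The scanner files alone name a further Trpc4 probe, which passed the filter on dim probes but was not counted as a member, since the platform's gene symbols leave it unnamed. A probe that names both Trpv1 and Trpv4 was assigned to neither.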
